A study of Mus musculus with 3 samples.

Results

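The MEF2 and NFI transcription factors were described in skeletal muscle of mice that carry an Rbm20 missense change, by the level and the exon use of 7 genes: Mef2a, Mef2c, Mef2d, Nfia, Nfib, Nfic and Nfix. All exonic parts listed under these gene symbols were taken, which gave 234 parts (133 in the MEF2 genes and 101 in the NFI genes) of 469293 in all, and 7 genes of 52041 that were not merged with an overlapping gene. RNA came from 3 libraries of 12-week-old mice, 1 homozygous and 1 heterozygous for Rbm20 I538T (c.T1613C), placed in the gene by CRISPR/Cas as the counterpart of human I536T (c.T1607C), and 1 wild type. Sources used here do not name the muscle, the strain or any pooling of animals. With 1 library per genotype, differences describe 1 library against another and carry no p-value. For the same reason each 95% interval covers counting error only. Reads carried no molecular identifiers, so copies of 1 molecule count as separate reads and every interval, also those of exon use, may be too narrow. Intervals of gene levels take every count as a separate read. Since 1 read may be counted in more than 1 part, they may be too narrow.

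MEF2 proteins bind DNA through a MADS domain and a MEF2 domain and switch on genes of muscle contraction and metabolism. Class II histone deacetylases hold them inactive, and kinases driven by calcium release that hold. Their transcripts differ by exons: a pair of mutually exclusive alpha exons behind the MEF2 domain, a short acidic beta exon in the activation domain, and the gamma exon of Mef2c, which holds a repressor segment. Of the alpha exons, alpha2 is the one joined in during muscle differentiation in mouse cells, and the protein with alpha1 of Mef2d is a target of protein kinase A. NFI proteins bind DNA as dimers of the 4 family members through a conserved N-terminal domain, while the C-terminal region, encoded by variable exons, regulates transcription. In mouse muscle NFIX drives the switch from embryonic to fetal gene expression. RBM20, the protein changed in these mice, is an RNA-binding splicing regulator best known from titin.

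The alpha pairs of Mef2c and Mef2d are printed because reads that join one exon skip the other. Capitals mark the bases that are identical between the 2 alpha exons of a gene, in the alignment of that pair. Sequences are from GENCODE M21 on GRCm38, 5′ to 3′ on the gene's strand. Those of Mef2c lie at chr13:83625265-83625408 and chr13:83625470-83625607 on the plus strand and those of Mef2d at chr3:88158034-88158171 and chr3:88158221-88158355 on the plus strand. All 4 exons are coding, and alpha1 is the one that comes first in the direction of transcription.
Mef2c alpha1: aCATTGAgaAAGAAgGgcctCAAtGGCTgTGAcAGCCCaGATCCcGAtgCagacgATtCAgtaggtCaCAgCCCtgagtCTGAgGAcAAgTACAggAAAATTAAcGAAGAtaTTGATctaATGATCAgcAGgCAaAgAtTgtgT
Mef2c alpha2: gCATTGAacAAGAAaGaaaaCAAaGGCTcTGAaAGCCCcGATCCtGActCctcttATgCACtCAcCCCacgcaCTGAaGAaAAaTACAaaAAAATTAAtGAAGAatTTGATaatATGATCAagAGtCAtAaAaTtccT
Mef2d alpha1: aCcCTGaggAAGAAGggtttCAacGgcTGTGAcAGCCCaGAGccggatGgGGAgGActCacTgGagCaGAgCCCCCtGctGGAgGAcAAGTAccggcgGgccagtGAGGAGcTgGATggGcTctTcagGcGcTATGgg
Mef2d alpha2: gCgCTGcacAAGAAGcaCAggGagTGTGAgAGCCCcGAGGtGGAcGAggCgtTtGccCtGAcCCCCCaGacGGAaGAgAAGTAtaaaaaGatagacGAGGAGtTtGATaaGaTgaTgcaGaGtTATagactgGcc
The 2 exons of a pair shared 65.2% of aligned bases in Mef2c and 57.4% in Mef2d. Between these genes, alpha1 shared 66.7% and alpha2 66.7% of aligned bases.

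The beta and gamma exons are printed with capitals for the exon and lower case for the 15 coding bases of the spliced transcript on each side. Beta of Mef2a lies at chr7:67244521-67244544 (minus strand), beta of Mef2c at chr13:83654598-83654621 (plus strand), beta of Mef2d at chr3:88161781-88161801 (plus strand) and gamma of Mef2c at chr13:83662307-83662402 (plus strand).
Mef2a beta: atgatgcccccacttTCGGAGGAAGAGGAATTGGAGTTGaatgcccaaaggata
Mef2c beta: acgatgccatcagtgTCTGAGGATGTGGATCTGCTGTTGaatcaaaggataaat
Mef2d beta: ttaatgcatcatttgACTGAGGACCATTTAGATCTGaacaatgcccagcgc
Mef2c gamma: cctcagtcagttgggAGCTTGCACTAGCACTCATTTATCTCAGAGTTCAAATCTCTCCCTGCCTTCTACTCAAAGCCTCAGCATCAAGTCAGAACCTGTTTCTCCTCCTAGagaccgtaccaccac
The beta exons are 24, 24 and 21 bases long, each a multiple of a codon's 3 bases, and the gamma exon is 96 bases long.

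The 3 variable coding exons of Nfib that differed most between homozygous and wild-type muscle are printed in the same way. They lie on the minus strand at chr4:82323545-82323710, chr4:82320474-82320556 and chr4:82310303-82310391. The coding exon of Nfix at chr8:84723728-84723850, also on the minus strand, is printed for contrast, since its PSI lay within 2 points in every pair.
Nfib exon of 166 bases: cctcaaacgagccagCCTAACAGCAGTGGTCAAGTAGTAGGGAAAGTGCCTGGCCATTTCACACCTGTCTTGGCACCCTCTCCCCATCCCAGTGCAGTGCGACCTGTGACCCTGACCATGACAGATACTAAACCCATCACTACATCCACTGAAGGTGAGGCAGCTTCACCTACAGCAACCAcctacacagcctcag
Nfib exon of 83 bases: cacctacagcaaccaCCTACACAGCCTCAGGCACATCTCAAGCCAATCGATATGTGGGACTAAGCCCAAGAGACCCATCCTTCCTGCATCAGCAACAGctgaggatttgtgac
Nfib exon of 89 bases: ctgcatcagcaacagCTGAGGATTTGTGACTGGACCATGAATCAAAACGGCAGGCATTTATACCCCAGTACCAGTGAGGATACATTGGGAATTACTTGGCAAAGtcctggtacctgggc
Nfix exon of 123 bases: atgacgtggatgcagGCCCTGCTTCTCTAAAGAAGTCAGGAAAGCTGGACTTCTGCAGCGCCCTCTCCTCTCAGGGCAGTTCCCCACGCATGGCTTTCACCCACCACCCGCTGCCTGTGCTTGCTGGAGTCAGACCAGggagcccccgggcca

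Inclusion reads (reads that overlap a part or join into it) summed to 215923385 in homozygous, 265358773 in heterozygous and 239837797 in wild-type muscle, where 1 read may be counted in more than 1 part. Fast fibre markers, among them Myh4 and Tnnt3, summed to 183814 in homozygous, 141465 in heterozygous and 153195 in wild-type muscle, in reads per 1000000 inclusion reads of the library (RPM). Heart markers summed to 2.27, 5.57 and 17.4 RPM, most of it from Myh6 with 1.94, 5.24 and 16.9 RPM, while Nppb was at 0 in all 3 libraries. Slow fibre markers stood apart: their sum was 143.9 RPM in homozygous, 904.9 in heterozygous and 2339 in wild-type muscle, and 9 of 9 were at least 1.5-fold lower in homozygous than in wild-type muscle. Fibroblast markers summed to 1649, 4141 and 3138 RPM, with 5 of 6 measured lower in homozygous than in wild-type muscle, and adipocyte markers to 1082, 4720 and 1702 RPM, with 4 of 6 higher in heterozygous than in wild-type muscle. Endothelial, pericyte, leukocyte, Schwann and blood marker sums were also lowest in the homozygous library. Most of the endothelial sum was Fabp4 (1240, 3005 and 2124 RPM) and most of the adipocyte sum Cfd (724.7, 3709 and 1028 RPM). Of 7 endothelial markers, 3 were at least 1.5-fold lower in homozygous than in wild-type muscle. Pecam1 and Cdh5 had log2 ratios of -0.16 and -0.22 in that pair. Tendon markers went another way, with sums of 116.5, 181.3 and 96.9 RPM, and 2 of 5 were higher and 0 lower in homozygous than in wild-type muscle. The targeted gene Rbm20 had 2.97 RPM in homozygous, 10.8 in heterozygous and 13.0 in wild-type muscle, and reads of the mutant and the normal allele are not separated in its counts.

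All 7 genes were read in every library, and 218 of the 234 parts had at least 10 reads in all 3 libraries (230 in at least 1). Mef2c, the MEF2 gene with most reads, had 379.7 RPM (95% interval 377.1 to 382.3) in homozygous, 373.2 in heterozygous and 386.6 in wild-type muscle. Mef2d had 51.1, 47.9 and 41.9 RPM, and Mef2a had 44.5, 36.4 and 32.8 RPM. Both totals were highest in the homozygous and lowest in the wild-type library, by 0.28 for Mef2d and 0.43 for Mef2a on the log2(RPM + 1) scale between those libraries. Over coding parts alone Mef2a was lowest in the heterozygous library instead, with a log2 ratio of heterozygous to wild type of -0.33 against 0.15 for the total, and by the median density over coding parts (-0.06) so was Mef2d.

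Among the NFI genes, Nfix had 190.2 RPM (188.4 to 192.1) in homozygous and 180.6 in heterozygous muscle, against 135.6 (134.1 to 137.0) in wild-type muscle. Its log2 ratios to wild type were 0.49 in homozygous and 0.41 in heterozygous muscle, so both libraries with the mutation were above the wild-type one. Nfic had 134.8, 140.2 and 135.7 RPM and was nearly level in total, while over coding parts alone its log2 ratios to wild type were 0.27 in homozygous and 0.24 in heterozygous muscle. Nfib, a regulator of lung and brain development, had 66.0 RPM in homozygous, 71.7 in heterozygous and 79.1 in wild-type muscle. Its log2 ratios to wild type, -0.26 and -0.14 for the total, turned to 0.27 and 0.34 over coding parts alone, where wild type was lowest. Nfia, which supports brown fat genes in mice, had 15.5 RPM in homozygous, 26.4 in heterozygous and 17.5 in wild-type muscle. Here the heterozygous library stood above the other two. It was also highest in 5 of 6 measured adipocyte markers, among them Adipoq with 123.0, 282.0 and 176.0 RPM, and in 4 of 6 fibroblast markers, among them Dcn with 469.8, 1075 and 829.4 RPM. The others, Lep with 10.2, 24.1 and 47.3 RPM and the fibroblast genes Col6a1 and Lum, were highest in wild-type muscle. The part of these cells in the Nfia level was not tested. In whole muscle, fewer cells of a type and less RNA per cell cannot be told apart.

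No member passed 1.5-fold against wild type. Over the 9421 genes with 5 RPM or more in at least 1 library, 6.73% were at least 1.5-fold higher and 24.0% lower in homozygous than in wild-type muscle, and 16.4% were higher and 8.86% lower in heterozygous than in wild-type muscle. Between homozygous and heterozygous muscle, 0 of 7 members were higher and 1 was lower, Nfia at 0.60-fold, against 5.41% of all genes higher and 30.2% lower. The median log2 ratio of all genes was -0.18 for homozygous against wild type, 0.10 for heterozygous against wild type and -0.27 for homozygous against heterozygous, while that of the 7 members was -0.01, 0.15 and 0.02. With counts scaled by median-of-ratios size factors, Nfix passed 1.5-fold in homozygous against wild-type muscle and Nfia no longer passed it between homozygous and heterozygous muscle. The 3 genes whose pair of ratios to wild type lay nearest to that of Nfix, among 7048 genes with 5 RPM or more in every library, were Sil1, Ythdf2 and Mmaa, at distances of 0.016, 0.017 and 0.017 on the log2 scale.

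**Figure D1:**
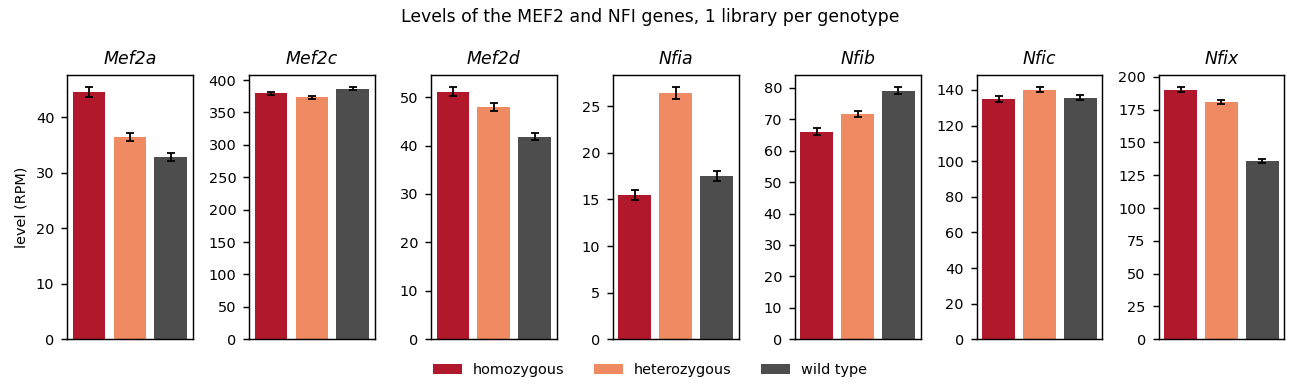
Level of each of the 7 genes in RPM (vertical axis from 0, a separate scale per gene) in the homozygous, heterozygous and wild-type library, with exact Poisson 95% intervals of the reads as error bars. These take every count as a separate read and may be too narrow. Nfix is at 190.2, 180.6 and 135.6 RPM and Nfia at 15.5, 26.4 and 17.5 RPM, while Mef2c lies between 373.2 and 386.6 RPM.

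Per length, the genes came in another order. The median over coding parts, in RPM per kilobase, was highest for Nfix, with 63.5 in homozygous, 59.5 in heterozygous and 45.8 in wild-type muscle, followed by Nfic with 37.3, 36.4 and 31.8. Mef2c followed with 20.6, 16.9 and 11.8, and then Nfib with 10.6, 11.4 and 7.51. Mef2d had 5.80, 4.04 and 4.21. Mef2a had 3.20, 1.82 and 2.52 and Nfia 1.104, 2.61 and 0.502, so these 2 changed places in the heterozygous library. With 1 library each, no spread is known for neighbours in this order.

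Reads of Mef2c were spread unevenly, and its coding density differed between the libraries more than its total did. An untranslated part of an early exon (chromosome 13, 83504240 to 83504376) held 163 RPM per kilobase in homozygous, 173 in heterozygous and 206 in wild-type muscle. The first wholly coding part, at 83575677 to 83575730, held 92.8, 88.1 and 73.5. Past the alpha exons the density was lower in all 3 libraries, 19.99, 14.01 and 8.28 in the part at 83633061 to 83633135. Over the 17 coding parts with a PSI of at least 90% in every library, the median density of the first 6 over that of the next 6 was 2.12 in homozygous, 2.30 in heterozygous and 2.72 in wild-type muscle. The first 6 lie on both sides of the alpha exons, so this ratio understates the drop there. The part just before those exons, at 83592877 to 83592981, held 70.8, 65.9 and 54.7. Coding parts took 40.3%, 34.9% and 27.5% of the gene's reads. The wild-type library was thus highest in the early untranslated part and lowest in the middle of the coding sequence.

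Nfia was uneven in another way. Its coding part of 532 bases (chromosome 4, 97783082 to 97783613), which encodes most of the DNA-binding domain, held 1.104 RPM per kilobase in homozygous, 4.996 in heterozygous and 2.99 in wild-type muscle. The part behind it, at 97956374 to 97956439, held 1.20, 2.54 and 0.381. The last part, 7654 bases long and mostly untranslated (98111218 to 98118871), held 1.51, 1.98 and 1.75. In the wild-type library the other coding parts held 0 to 0.780, below the 532-base part and the last part, and its exon values there rest on few reads. Over the coding parts with a PSI of at least 90% in every library, the median density of the first over that of the middle ones was 1.08 in homozygous, 1.21 in heterozygous and 0.854 in wild-type muscle. The 532-base part is 1 of 3 in the first group, so this ratio does not show the drop behind it in the wild-type library.

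**Figure D2:**
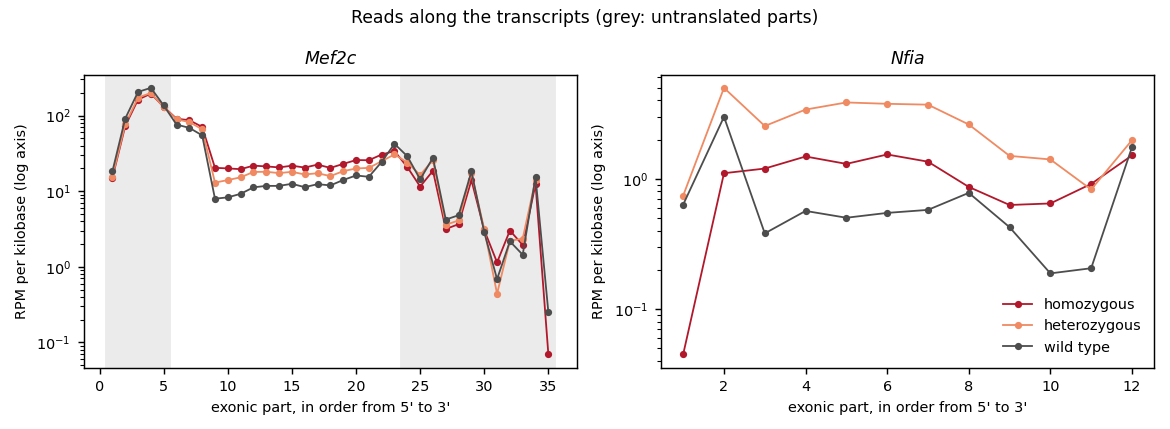
RPM per kilobase (log axis) in exonic parts of Mef2c and Nfia in order from 5′ to 3′, for the homozygous, heterozygous and wild-type library, with untranslated parts shaded grey and parts with 0 reads left out of a line. Wild type is the highest line over the early untranslated parts of Mef2c and the lowest over the middle of its coding sequence, and its own highest values in Nfia are in the 532-base part and the last part.

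Exon use was read as PSI, a percent that sets inclusion reads of an exonic part against exclusion reads that skip the part. Both were divided by the length that can give such a read. Transcripts that neither hold nor skip a part do not enter its PSI. A part that no read skips is thus at the top of this scale, however few of the gene's transcripts hold it. A difference of 20 percentage points or more, at 10 reads or more in each of the 2 libraries, was called. Between homozygous and wild-type muscle 219 member parts were measured, of which 6 (2.74%) were called higher and 3 (1.37%) lower, against 2.63% and 2.94% of all parts. Between heterozygous and wild-type muscle 5 of 222 (2.25%) were higher and 4 (1.80%) lower, against 2.57% and 3.21% of all parts. Between homozygous and heterozygous muscle 6 of 220 (2.73%) were higher and 2 (0.909%) lower, against 2.96% and 2.56%. The shares of members called were near or under those of all parts. Mef2c, with 72 measured parts, and Nfix, with 27, had 0 parts called in any pair.

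The MEF2 genes had 1 part called between homozygous and wild-type muscle, the beta exon of Mef2a. It was at 100% (96.0 to 100) in homozygous and 100% (94.3 to 100) in heterozygous muscle, against 63.9% (53.8 to 72.9) in wild-type muscle. Inclusion reads were 110, 75 and 67 and exclusion reads 0, 0 and 32, so the call rests on 32 skipping reads of 1 library. The difference from wild type was 36.1 points in both (26.3 to 46.2 for homozygous minus wild type). Beta of Mef2d did not share this pattern: it was at 91.1% in homozygous, 75.3% in heterozygous and 91.2% in wild-type muscle. Beta of Mef2c was nearly always skipped, with PSI of 4.04%, 1.80% and 3.79% from 37, 16 and 24 inclusion reads.

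The alpha exons of all 3 genes favoured alpha2 in every library. Alpha1 of Mef2a was at 23.3% (18.9 to 28.3) in homozygous and 13.4% (10.02 to 17.7) in heterozygous muscle, against 33.8% (28.4 to 39.7) in wild-type muscle. Heterozygous minus wild type came to -20.4 points (-27.2 to -13.5) and was called lower. The non-coding parts on both sides of alpha1, at 67268401 to 67268714 and 67268205 to 67268268, held 70 and 18 inclusion reads in wild-type muscle. Both held 0 in the homozygous and the heterozygous library. The part of such transcripts in the wild-type value of alpha1 was not tested. The alpha2 exon of Mef2a is split into 2 parts that share their exclusion reads. The 51-base part was at 70.3%, 87.0% and 74.5% and the 87-base part at 45.7%, 70.3% and 58.2%, and the 87-base part was called lower in homozygous than in heterozygous muscle. The heterozygous library thus held the least alpha1 and the most alpha2 of Mef2a.

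Mef2d had the heterozygous library at the opposite end. Its alpha1 was at 13.9% (11.0 to 17.4) in homozygous, 35.8% (30.8 to 41.2) in heterozygous and 18.9% (15.3 to 23.3) in wild-type muscle, and its alpha2 at 82.5% (77.2 to 86.7), 61.4% (55.2 to 67.3) and 75.4% (69.4 to 80.6). Both were called between homozygous and heterozygous muscle, alpha1 lower at -21.9 points and alpha2 higher at 21.1 points. The heterozygous library held the most alpha1 of Mef2d, and homozygous and wild-type muscle lay close together.

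In Mef2c, the deepest of the 3, no part of the alpha exons was called. The first 66 bases of alpha2 were at 76.1% (73.8 to 78.3) in homozygous, 84.7% (82.6 to 86.5) in heterozygous and 83.8% (81.4 to 86.0) in wild-type muscle. Its last 5 bases had another order, at 47.7%, 55.5% and 38.8%, so PSI was uneven along the exon. There homozygous minus wild type was 8.94 points (1.58 to 16.0) and heterozygous minus wild type 16.7 points (8.89 to 24.1). The last 15 bases of alpha1 were at 17.2%, 7.84% and 8.45%. Here the homozygous library held somewhat more alpha1 than the other two, by 8.71 points (6.42 to 11.0) over wild type, which is under the size needed for a call.

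Reads that skip alpha1 can hold alpha2 and those that skip alpha2 can hold alpha1, so the share of reads skipping alpha1 among both gives 1 value per gene without the parts' lengths. For Mef2a it was 76.4% (69.9 to 81.9) in homozygous, 90.2% (84.7 to 93.9) in heterozygous and 78.4% (71.1 to 84.2) in wild-type muscle. For Mef2d it was 84.9% (80.1 to 88.8), 64.2% (57.6 to 70.3) and 78.3% (72.4 to 83.2). The heterozygous library thus stood apart in both genes, in opposite directions. For Mef2c the share was 81.7% (79.8 to 83.5), 89.1% (87.5 to 90.4) and 88.7% (86.8 to 90.3), and homozygous minus wild type came to -6.9 points (-9.5 to -4.4). For Mef2a that difference was -1.9 points (-10.7 to 7.2) and for Mef2d 6.7 points (-0.2 to 13.7), both with intervals that hold 0. By density of inclusion reads instead, the alpha2 share of Mef2a was 60.9%, 75.2% and 53%, so homozygous lay above wild type. It was 65.6%, 76.6% and 73% for Mef2c and 83.8%, 61.4% and 78.5% for Mef2d.

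**Figure D3:**
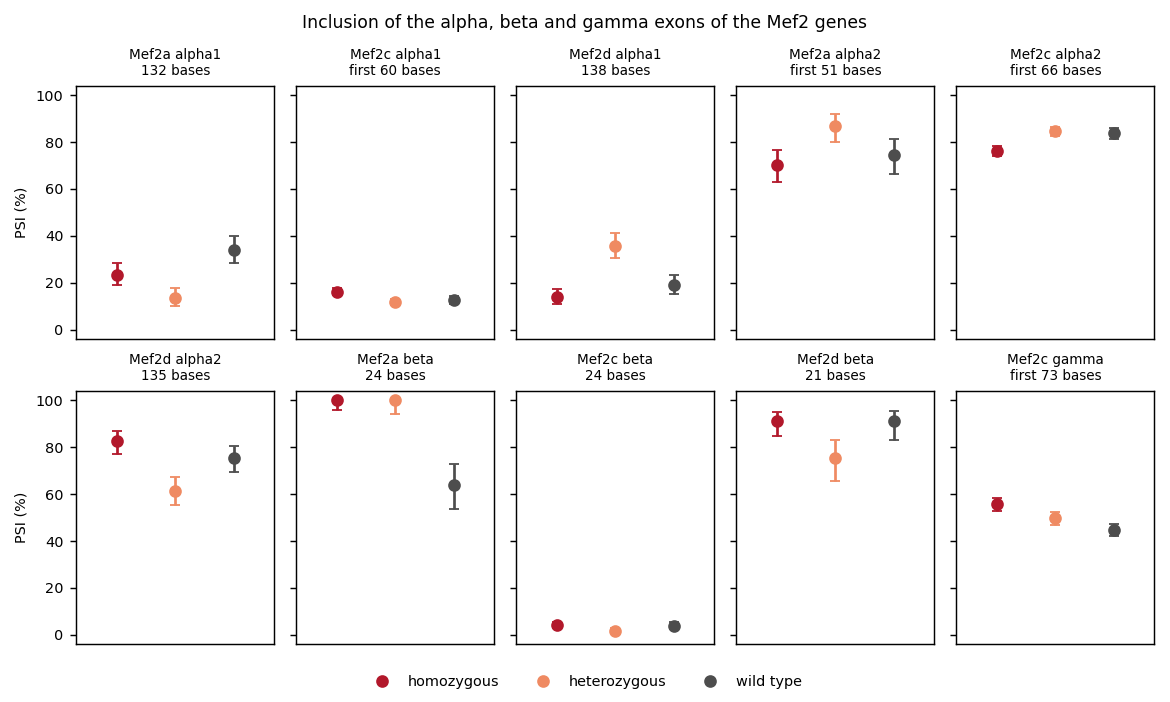
PSI in percent (vertical axis, 0 to 100) of the alpha, beta and gamma exons of Mef2a, Mef2c and Mef2d in the homozygous, heterozygous and wild-type library, with Wilson 95% intervals (counting error only), and 1 part shown where an exon is split. Beta of Mef2a is at 100%, 100% and 63.9%, and alpha1 is lowest in heterozygous muscle for Mef2a (13.4%) and highest there for Mef2d (35.8%).

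Gamma of Mef2c was at 55.8% (52.9 to 58.5) in homozygous, 49.7% (47.0 to 52.4) in heterozygous and 44.8% (42.3 to 47.5) in wild-type muscle in its first 73 bases, and at 55.9%, 51.0% and 48.8% in its last 23 bases. Homozygous minus wild type was 10.9 points (7.07 to 14.7) in the first stretch, under the size of a call. In the first coding part of Mef2c, at 83575677 to 83575730, PSI was 93.4%, 100% and 89.8%, from 186, 0 and 261 exclusion reads. The 2 bases behind gamma, at 83662403 to 83662404, were at 93.8%, 94.4% and 86.4%. A partly coding part of Mef2d at 88168345 to 88168458 was at 30.1%, 32.2% and 43.0%. One other MEF2 part was called, 20 untranslated bases of Mef2a at 67349849 to 67349868, with 28.4% in homozygous and 5.70% in heterozygous muscle, against 16.6% in wild-type muscle.

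Nfib had the NFI calls with most reads between homozygous and wild-type muscle. Its coding exon of 83 bases was at 5.24% (3.74 to 7.31) in homozygous, 12.8% (10.4 to 15.5) in heterozygous and 30.4% (26.6 to 34.4) in wild-type muscle, a difference of -25.1 points (-29.4 to -20.8) between homozygous and wild type. Its coding exon of 89 bases was at 2.72% (1.72 to 4.28), 15.3% (12.9 to 18.2) and 23.0% (19.9 to 26.4), a difference of -20.3 points (-23.8 to -16.8). Both were called lower in homozygous than in wild-type muscle. In heterozygous minus wild type, -17.6 and -7.67 points were under the size of a call.

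The exon of 166 bases upstream of them showed the same order. Its first 139 bases were at 4.57%, 6.77% and 22.5%, and its last 27 bases at 0% (0 to 0.827), 5.99% and 15%, from 0, 30 and 66 inclusion reads. These differences, -17.9 and -15 points for homozygous minus wild type, were not called. The 139-base part and the 83-base exon share their exclusion reads, which numbered 365, 381 and 274, so the skipping of these exons is not counted independently. In all 4 of these coding parts homozygous was lowest, heterozygous between and wild type highest. A long part of non-coding transcripts of Nfib, at 82495984 to 82498237, was at 10.3% in homozygous, 5.52% in heterozygous and 25.9% in wild-type muscle, and was called lower in heterozygous muscle. Other such parts were also highest in wild type, 82353052 to 82353522 at 2.33%, 3.26% and 12.6% and 82328594 to 82330291 at 0%, 0% and 2.05%. The one just upstream of these coding exons, 82326825 to 82327728, was at 3.8%, 12.9% and 15.7%, in the same order as they were. The part of such transcripts in the exon values was not tested. Untranslated parts at 82505311 to 82505707 and 82505309 to 82505310 were at 100% in heterozygous muscle, against 44.6% and 42.5% in wild-type muscle from 8 exclusion reads, and were under 10 reads in homozygous muscle. A partly coding part beside them, at 82504731 to 82505308, was at 100%, 100% and 93.4%.

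Nfia had 5 of 18 measured parts (27.8%) called higher in homozygous than in wild-type muscle, against 2.63% of all parts. Of these, 4 were neighbours in 1 first exon. The untranslated part at 97777626 to 97777802 was at 71.9% (44.5 to 89.0) in homozygous, 37.6% (27.3 to 49.1) in heterozygous and 20.7% (12.4 to 32.6) in wild-type muscle. The 4 share 3, 29 and 26 exclusion reads, so they are 1 event seen in 4 parts. The interval of that untranslated part is wide, from 21.3 to 70.2 points for homozygous minus wild type. At 97777834 to 97777994, where the coding sequence begins and an exon of E130114P18Rik overlaps on the other strand, PSI was 85.4%, 75.0% and 62.4%, and the reads of the 2 genes cannot be told apart.

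The fifth of these parts of Nfia was its coding exon of 129 bases (98041551 to 98041679), at 100% (90.9 to 100) in homozygous and 100% (97.1 to 100) in heterozygous muscle, against 69.4% (51.8 to 82.7) in wild-type muscle from 36 inclusion and 8 exclusion reads. The coding exon of 92 bases (98081725 to 98081816) was at 100% (87.1 to 100), 57.8% (45.3 to 69.5) and 100% (62.7 to 100), with 21 exclusion reads in the heterozygous library alone, and was called in both pairs with that library. A coding exon of 66 bases at 97956374 to 97956439 was at 100%, 83.9% and 100%. Each of these 3 coding exons had skipping reads in 1 library only, at most 21 of them.

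Nfix and Nfic had variable coding exons whose values lay close together in the 3 libraries. The Nfix exon of 123 bases was at 32.7% (31.2 to 34.3) in homozygous, 33.3% (31.8 to 34.7) in heterozygous and 32.1% (30.4 to 33.7) in wild-type muscle, from 1563, 1813 and 1272 inclusion and 1656, 1877 and 1390 exclusion reads, and homozygous minus wild type was 0.68 points (-1.58 to 2.92). Its exon of 148 bases (84716141 to 84716288) was at 8.25%, 8.99% and 7.34%, a coding part of 27 bases (84799998 to 84800024) at 96.1%, 95.2% and 92.6%, and a part of 3 bases (84726603 to 84726605) at 79.7%, 79.2% and 82.7%. Those 3 bases overlap G430095P16Rik on the other strand.

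The Nfic exon of 126 bases (chromosome 10, 81406089 to 81406214) was at 86.7% (84.4 to 88.7), 86.9% (84.9 to 88.7) and 84.3% (81.7 to 86.6). A partly coding part at 81403352 to 81403428 was at 83.0%, 79.6% and 85.7%, and another at 81427076 to 81427114 at 94.8%, 89.2% and 99.2%. The Nfic call was in 14 untranslated bases at 81427174 to 81427187, with 50.7% in homozygous, 31.5% in heterozygous and 73.0% (44.3 to 90.3) in wild-type muscle. It was called lower in both libraries with the mutation. The wild-type value comes from 9 inclusion and 3 exclusion reads, and the interval of homozygous minus wild type, -43.4 to 8.86 points, holds 0.

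**Figure D4:**
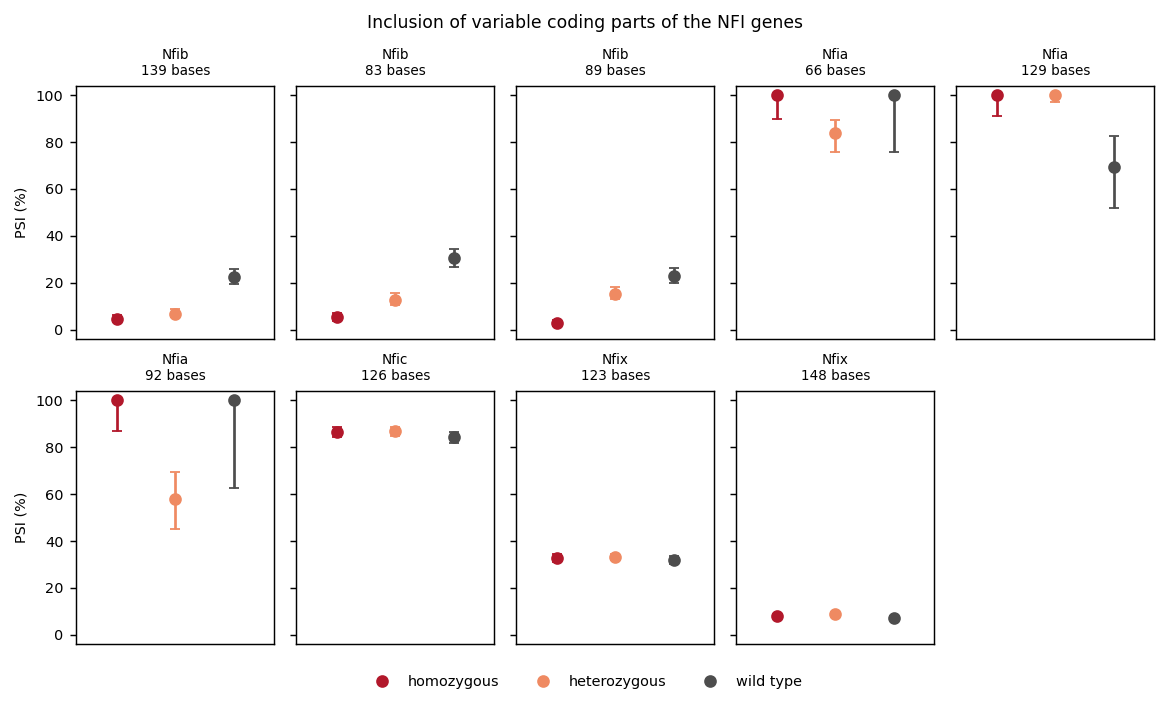
PSI in percent (vertical axis, 0 to 100) of variable coding exons of Nfib, Nfia, Nfic and Nfix in the homozygous, heterozygous and wild-type library, with Wilson 95% intervals (counting error only). The Nfib exons of 83 and 89 bases are lowest in homozygous muscle (5.24% and 2.72%), while the Nfix exon of 123 bases lies between 32.1% and 33.3%.

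Of the 120 coding or partly coding parts of the 7 genes, 36 had a PSI between 5 and 95% with at least 10 reads in at least 1 library, 20 of 63 in the MEF2 and 16 of 57 in the NFI genes. Variable exons were thus present in every member, while parts called different were in 4 of 7 genes in homozygous against wild type (Mef2a, Nfia, Nfib, Nfic), in the same 4 in heterozygous against wild type and in 3 in homozygous against heterozygous (Mef2a, Mef2d, Nfia). Over all genes with measured parts, 23.6%, 24.3% and 23.4% had a part called in those pairs. The members had 18 to 72 measured parts each in homozygous against wild type, and a gene with more parts has more chances of a call.

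Regulators and partners of MEF2 were given next to it, as a list of deacetylases, kinases, calcineurin subunits and cofactors. Of 28 measured, 3 were at least 1.5-fold higher and 6 lower in homozygous than in wild-type muscle, with a median log2 ratio of -0.26 against -0.18 over all genes. Over all genes 6.73% were higher and 24.0% lower. Hdac9, a MEF2-binding deacetylase that is itself a MEF2 target, had 0.741 RPM in homozygous, 6.55 in heterozygous and 7.51 in wild-type muscle. Prkd2, a protein kinase D that acts on those deacetylases, had 1.91, 11.2 and 7.56 RPM. Ppargc1a, the coactivator of mitochondrial and slow fibre genes, had 7.62, 25.7 and 17.2 RPM, and Nfatc2, a calcineurin-driven factor, had 2.20, 6.10 and 5.72 RPM. All 4 were lowest in the homozygous library, but they were picked for the largest ratio of homozygous to wild type in either direction. The 3 higher genes, named after their values were seen, were Hdac4, Myod1 and Vgll2, with log2 ratios of 1.01, 0.84 and 0.63. In heterozygous against wild type 4 were higher and 2 lower, and in homozygous against heterozygous 0 were higher and 10 lower. Shares over all genes were 16.4% and 8.86% in the former pair and 5.41% and 30.2% in the latter.

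Target genes of MEF2 known from muscle were taken as another list. Of 29 measured, 1 was higher (Stac3, named after its value was seen) and 8 were lower in homozygous than in wild-type muscle, with a median log2 ratio of 0.07. Over all genes 6.73% were higher and 24.0% lower. Tnni1, the slow troponin I, had 2.58 RPM in homozygous, 48.0 in heterozygous and 160.3 in wild-type muscle. Myoz2, a slow fibre calcineurin-binding protein of the Z disc, had 26.9, 68.7 and 78.9 RPM. Hdac9 and Ppargc1a, given above, are the other two named, and Tnni1 and Casq2 are slow fibre markers as well. The slow fibre marker sum, lowest in homozygous muscle like these genes, is given above, and its part in their levels was not tested. The counts were 2 higher and 3 lower in heterozygous against wild type, and 1 higher and 7 lower in homozygous against heterozygous. Shares over all genes were 16.4% and 8.86% in the former pair and 5.41% and 30.2% in the latter.

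The circuit of NFIX in muscle, with its partners and targets from mouse work, had 1 gene of 12 measured higher and 2 lower in homozygous than in wild-type muscle (median log2 ratio -0.10). Myh7, the slow myosin heavy chain that NFIX holds down in fetal mouse muscle, had 2.13 RPM in homozygous, 42.5 in heterozygous and 179.7 in wild-type muscle. Acvr2b, a myostatin receptor, had 5.86, 15.2 and 23.5 RPM. Jag2, a Notch ligand, had 13.1 and 13.8 RPM in homozygous and heterozygous muscle, against 5.30 in wild-type muscle, and Jund, a factor of the AP-1 family, had 19.4, 41.7 and 27.2 RPM. Myh7 is also 1 of the 9 slow fibre markers that were all lower in homozygous than in wild-type muscle, and the part of fibre type in its level was not tested. Other genes of the circuit, named after their values were seen, lay near wild type in homozygous muscle, with log2 ratios of -0.04 for Mstn (myostatin) and -0.16 for Sox6, a repressor of slow fibre genes. Mef2a is also on this list. In heterozygous against wild type 2 were higher and 3 lower, and in homozygous against heterozygous 0 were higher and 4 lower. Over all genes 6.73% were higher and 24.0% lower in homozygous against wild type. The shares were 16.4% and 8.86% in heterozygous against wild type and 5.41% and 30.2% in homozygous against heterozygous.

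Splicing regulators that act on Mef2 or other muscle exons were mostly near level, with 0 of 13 higher and 2 lower in homozygous than in wild-type muscle (median log2 ratio -0.12). The 2 were Rbm20, given above, and Qk, the quaking RNA-binding protein, with 65.8, 104.9 and 103.4 RPM. Rbfox1, a muscle and brain regulator of Mef2 exons, had 108.1, 80.3 and 76.5 RPM, and Srpk3, a muscle kinase of splicing factors and a MEF2 target, had 33.3, 28.6 and 46.1 RPM. Rbfox1 was highest in homozygous muscle, at a log2 ratio of 0.49 to wild type, and was under 1.5-fold. In heterozygous against wild type 1 was higher (Ptbp2, named after its value was seen) and 1 lower (Srpk3), and in homozygous against heterozygous 0 were higher and 4 lower. Over all genes 6.73% were higher and 24.0% lower in homozygous against wild type. The shares were 16.4% and 8.86% in heterozygous against wild type and 5.41% and 30.2% in homozygous against heterozygous.

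A part called different was found in 13 of 30 MEF2 regulators (43.3%), 5 of 30 MEF2 targets (16.7%), 6 of 14 genes of the NFIX circuit (42.9%) and 5 of 13 splicing regulators (38.5%) in homozygous against wild type, beside the 23.6% of all genes given above. In heterozygous against wild type the counts were 16 of 31, 6 of 30, 6 of 15 and 5 of 13, and in homozygous against heterozygous 15 of 31, 7 of 30, 8 of 15 and 5 of 13. With at least 100 reads in both libraries the 4 lists together had 5, 14 and 12 genes with a part called, against 27, 30 and 31 at 10 reads, where a gene on 2 lists counts once. A share over all genes was not taken at 100 reads. The lists were not matched to all genes in measured parts, and a gene with more parts has more chances of a call.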

How the data were processed

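RNA of 3 skeletal muscle libraries was made into cDNA with a SMART-seq low-input kit and Nextera XT and read on a NovaSeq, per the labels' protocols. Other ages named in the labels were not analysed here. The deposited table holds, per the file headers, raw counts of inclusion and exclusion reads for each exonic part, a PSI fraction per library, and a signed difference score of PSI from wild type, which was not used. Per the submitters' processing notes, the build was GRCm38 and the tools were TopHat2 2.0.14, Bowtie 1.1.1, Trimmomatic 0.32 and cutadapt 1.1, with no roles stated. No source used here names the program that counted parts or says whether it used strand. Inclusion reads per (part length + 131) bases and exclusion reads per 131 bases give back the deposited PSI fraction to within 5e-07.

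Differences were taken as homozygous or heterozygous minus wild type and homozygous minus heterozygous. PSI intervals are Wilson's and those of differences Newcombe's, at 95%. Levels are inclusion reads per 1000000 of the library, compared as log2(RPM + 1) for genes at 5 RPM or more in at least 1 library, with exact Poisson intervals. Parts were placed with GENCODE M21. Some exon sequences of the members are not reported here. Parts of Mef2a, Mef2d, Nfia and Nfic (1 each) and of Nfix (3) overlap another gene. Overlapping genes merged in the table (1405 groups) have no value of their own. No column of other samples was present.

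Members, lists and rules were chosen with earlier results of these data known. Named parts are the alpha, beta and gamma exons, coding parts with PSI between 5 and 95%, and up to 3 other called parts per member. From each list the 4 genes with the largest log2 ratio of homozygous to wild type, in either direction, are named. The calls and intervals were tested on simulated data. Software was Python 3.11.15 with Biopython 1.88, matplotlib 3.10.9, scipy 1.17.1, pandas 2.3.3 and numpy 2.4.6.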

Additional observations from a re-analysis of the deposited data

How the results depend on the processing

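No paired analysis was possible because each genotype had 1 library, so no replicate could be left out either. The count of member parts called was 9 for the homozygous and 9 for the heterozygous library, each against wild type, and 8 between homozygous and heterozygous. It became 22, 29 and 15 with 10 points and 2, 2 and 3 with at least 100 reads. With 30 points it was 5 for homozygous against wild type and 2 for homozygous against heterozygous. With coding parts only it was 5, 4 and 4. Without a read minimum it was 14 in homozygous against wild type, and without parts at exactly 0 or 100% it was 5 in heterozygous against wild type. In level, 0 members passed 1.5-fold against wild type. With median-of-ratios size factors, or with the 100 genes with most reads left out of the total, 1 (Nfix) was higher in homozygous muscle, and the 1 member lower in homozygous than in heterozygous muscle (Nfia) became 0. With a pseudocount of 0.1, or with coding parts only, 1 was higher in heterozygous muscle, and coding parts only also gave 1 higher in homozygous than in heterozygous muscle. The median density over coding parts gave 2 higher in homozygous, 2 in heterozygous and 1 in homozygous over heterozygous muscle. With at least 100 reads, 5, 14 and 12 list genes had a part called. The level called different (Nfia) did not change direction. Of 168 alternative log2 ratios of the members, 29 had the opposite sign to the one reported: 10 in Nfic, 7 in Mef2c, 7 in Nfib, 2 in Mef2a, 2 in Nfia, 1 in Mef2d and 0 in Nfix. With size factors, homozygous against wild type became 0.10 for Mef2c (reported -0.03) and 0.11 for Nfic (-0.01), and heterozygous against wild type became -0.05 for Nfic (0.05). Scaling by size factors brought the median log2 ratio of all genes to -0.06, 0.01 and -0.07 in these pairs. The causes of these changes were not tested. The alpha2 share of skipping reads and a total without merged groups were alternatives added after seeing the data. Depth limits Nfia most, whose coding exons behind the 532-base part hold few wild-type reads.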
